A study of Homo sapiens with 2 samples.

Results

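A group of 10 genes known as transcriptional targets of p53 (MDM2, GDF15, BAX, FAS, BBC3, SESN1, ZMAT3, TP53I3, RRM2B and XPC) was followed through human stem cell-derived islet clusters. The genes were listed by name, with earlier results of these data known. Each symbol matched 1 of the 33694 genes in the count tables, so all 10 members were found. FAS and BBC3 stayed under 5 CPM (UMIs of a gene per 1000000 UMIs of the library or cell class) in both libraries and are given there as values only. The other 8 members reached that level in at least 1 library and entered the counts between the libraries. Between classes, BBC3 was also counted where a class compared reached 5 CPM in each library. Counts given over all 10 members include FAS and BBC3.

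The transcription factor p53 is held at a low level by MDM2, a ubiquitin ligase whose own gene p53 activates, so that MDM2 forms a feedback loop. When DNA is damaged or a cell is otherwise stressed, p53 binds a response element made of a pair of 10-base repeats and turns on genes for cell cycle arrest, apoptosis, DNA repair and metabolism. Many of these genes also have a basal level that does not need p53, and GDF15 is also raised by the integrated stress response. Breaks in DNA made by Cas9 are a known trigger of the pathway, also in human pluripotent cells.

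The cells came from iSOX9KO, a derivative of the Mel1-INS-GFP human embryonic stem cell line. All cells of both groups carry a doxycycline (DOX)-inducible Cas9 cassette at the AAVS1 locus and 3 constitutively expressed guides against SOX9. In the group labelled DOX, doxycycline at 2 ug/ml was given from day 12 of the differentiation. The group labelled no DOX carried the same cassette and received none. INS-GFP-positive cells were reaggregated into enhanced beta-clusters (eBCs), and live cells of dissociated eBCs were sequenced on the 10X Genomics platform. Each group is 1 library, so no spread between replicates exists, no test between the libraries was made, and every interval is a 95% interval that covers counting error only.

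Few of the 300-base windows around annotated gene starts hold a sequence close to the p53 response element, and those of the members are shown because p53 acts through this element. The element was searched, on either strand, from 250 bases before to 50 bases after each start in the RefSeq promoter table (GRCh38.p14), with the core of each repeat (CNNG) whole at its C and G and at most 3 of the 20 letters off the consensus. Such a sequence was found in 4 of the 9 members with a window, beside 1.37% of 27305 genes, and with at most 2 letters off in 2 of 9 members, beside 0.359% of genes. A gene with more windows has more places for such a sequence. MDM2 had 4 windows, FAS 3 and SESN1 3, while the 27305 genes had 35116 windows in all. The members were also listed as known targets of p53, so these counts are a description and no test. RRM2B had no window in the table. Capitals mark this core in each repeat.
MDM2: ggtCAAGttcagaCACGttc
FAS: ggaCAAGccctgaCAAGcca
SESN1: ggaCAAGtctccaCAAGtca
GDF15: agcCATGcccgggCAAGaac

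The MDM2 sequence (chr12:68808923-68808942, plus strand) lay in an intron, 94 and 101 bases before 2 of the annotated inner starts of the gene. It was 2 letters off the consensus. The FAS sequence (chr10:88991309-88991328, plus strand), also 2 letters off, lay 122 bases before a start and inside an exon of longer FAS transcripts, where ACTA2 is annotated on the other strand. The SESN1 sequence (chr6:109009018-109009037, minus strand) was 3 letters off and lay 49 bases before an inner start, in an intron of longer transcripts. The GDF15 sequence (chr19:18386186-18386205, plus strand) was 3 letters off and began 28 bases after the start, in an exon. The windows of BAX, BBC3, ZMAT3, TP53I3 and XPC held no such sequence, which says only that these letters are not in these windows. No readout of p53 binding was analysed here.

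The genes lie on 7 chromosomes (GRCh38, GENCODE annotation). On chromosome 19 are GDF15 (ENSG00000130513, chr19:18374731-18389176), BBC3 (ENSG00000105327, chr19:47220822-47232766) and BAX (ENSG00000087088, chr19:48954815-48961798). ZMAT3 (ENSG00000172667, chr3:178960121-179072215) and XPC (ENSG00000154767, chr3:14145147-14178621) are on opposite arms of chromosome 3. MDM2 (ENSG00000135679) spans chr12:68808177-68845544, FAS (ENSG00000026103) chr10:88953813-89029605, SESN1 (ENSG00000080546) chr6:108984309-109094846 and TP53I3 (ENSG00000115129) chr2:24077433-24085861. RRM2B (ENSG00000048392) is on chromosome 8. MDM2 overlaps the gene of carboxypeptidase M on the other strand, and the strand setting of the counting was not given in the sources used here.

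The barcodes numbered 30288 (550240855 UMIs) under the label no DOX and 31817 (520849221 UMIs) under DOX. After a minimum of 1000 UMIs and removal of doublets (26.6% and 26.5%), 21808 and 23118 cells were kept, with medians of 13958 and 12667 UMIs. The libraries shared 369 barcode sequences, 141 of them among the cells kept. Clustered without the members, the cells gave 6 classes named from markers: duct-like (152 cells under no DOX and 178 under DOX), proliferating progenitor-like (487 and 503), delta-like (2638 and 1929), alpha-like (5041 and 4104), beta-like (7049 and 9915) and beta cell progenitor-like (5294 and 5311). A further 2325 cells with a median of 70.8% mitochondrial UMIs stayed unnamed. SOX9, the targeted gene, was at 2.998 CPM (946 UMIs) in the no DOX library and 3.78 CPM (1147 UMIs) in the DOX library, a log2 ratio of 0.33 (0.21 to 0.46). Duct-like cells held 631 and 862 of these UMIs. Beta-like cells held 38 and 33, and the ratio there was -0.44 with an interval that spanned 0 (-1.16 to 0.27), as it also did in alpha-like (-0.66), delta-like (-0.26), progenitor-like (0.24; 200 and 205 UMIs) and proliferating progenitor-like cells (1.11; 3 and 6 UMIs). In duct-like cells it was 0.16 (0.007 to 0.31). Over all cells SOX9 was thus not lower in the library labelled DOX. UMIs do not read the sequence at the guides' sites, and the libraries are called the no DOX library and the DOX library after their labels alone.

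The first comparison asked whether the p53 targets differed between the libraries. They barely did: summed over all cells kept, the 10 members took 389.6 CPM under the label no DOX and 376.7 CPM under the label DOX. The log2 ratio was -0.05 (-0.06 to -0.04). BAX alone gave 55925 of the 122944 summed UMIs in the no DOX library and 51040 of 114358 in the DOX library. The sum thus follows BAX more than the members with few UMIs. None of the 8 members tested reached a log2 ratio of 0.5 in size, beside 1.02% of 10444 genes, and none reached 0.25, beside 5.76%. The ratio was below 0 for 7 of the 8, beside 53% of all genes. This count fell to 5 of 8 with doublets kept and after thinning to 5000 UMIs, where GDF15 and TP53I3 were above 0. The median over the 8 was -0.07 and that over all genes -0.01.

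MDM2 was at 32.1 CPM (10129 UMIs) in the no DOX library and 28.2 CPM (8569 UMIs) in the DOX library. Its log2 ratio of -0.19 (-0.23 to -0.14) was the lowest of the 8. Of the genes that drive apoptosis, BAX, which permeabilises the outer mitochondrial membrane, went from 177 to 168 CPM, a log2 ratio of -0.08 (-0.09 to -0.06). BBC3, which encodes the BH3-only protein PUMA, was at 3.28 and 3.38 CPM, with a ratio of 0.04 (-0.08 to 0.17). FAS, the death receptor for FAS ligand, gave 60 and 61 UMIs in all cells, 0.190 and 0.201 CPM. At this depth its ratio of 0.08 had an interval from -0.46 to 0.62, so a change of less than that size was not detectable. FAS overlaps ACTA2 on the other strand and STAMBPL1 on its own, so reads there may not be told apart.

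GDF15, a secreted stress cytokine of the TGF-beta superfamily, was at 14.2 and 13.5 CPM, a ratio of -0.08 (-0.14 to -0.02). The sign of this ratio was not stable: it was 0.032 with doublets kept, 0.038 with each cell thinned to 5000 UMIs and 0.18 with every class weighted equally. SESN1, which encodes a sestrin that restrains mTORC1 signalling, was at 14.9 and 14.4 CPM, with a ratio of -0.05 (-0.11 to 0.01). ZMAT3, a zinc finger RNA-binding protein, was at 32.0 and 30.4 CPM (-0.07, -0.11 to -0.03). TP53I3, a quinone oxidoreductase, was at 67.8 and 67.5 CPM, and its ratio of -0.01 had an interval that spanned 0 (-0.04 to 0.02). It was 0.0029 with doublets kept and 0.033 after thinning. TP53I3 overlaps FAM228B on the other strand.

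Of the members that act on DNA, RRM2B, the p53-inducible small subunit of ribonucleotide reductase, was at 21.2 CPM in the no DOX library and 19.6 CPM in the DOX library, a ratio of -0.11 (-0.16 to -0.06) that became -0.0026 with every class weighted equally. XPC, which finds damage for nucleotide excision repair, was at 26.7 and 31.4 CPM, and its ratio of 0.24 (0.19 to 0.28) was the only one above 0 among the 8 and became 0.14 with that weighting. XPC overlaps the antisense gene XPC-AS1. The intervals are narrow because the counts are large, and they do not cover differences between cultures.

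**Figure D1:**
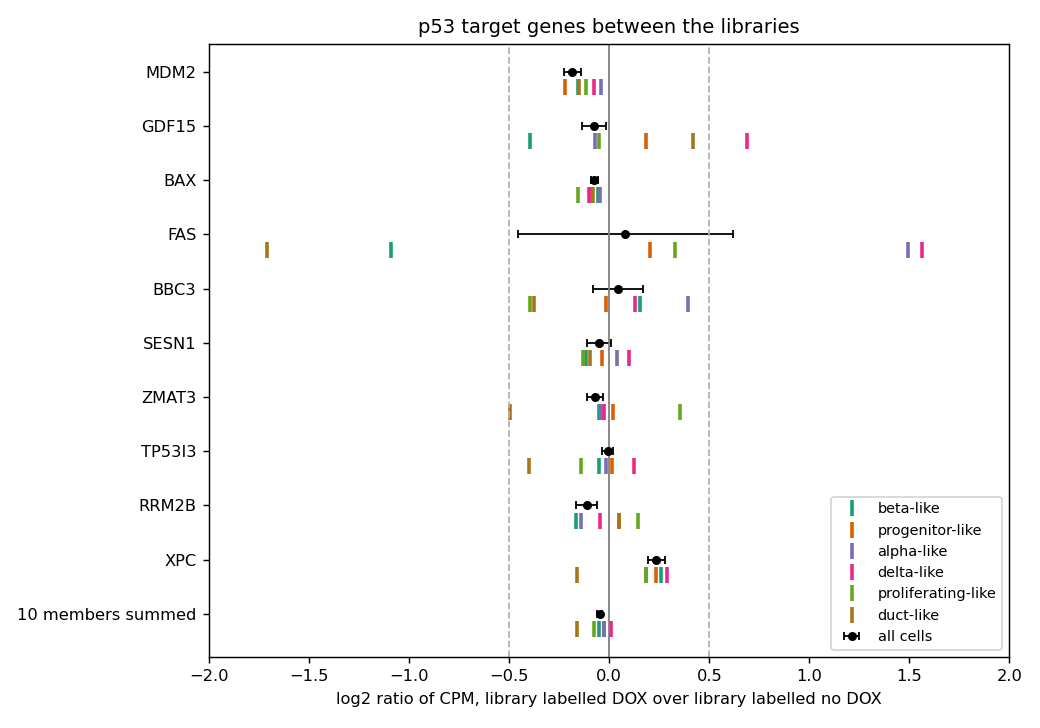
Log2 ratio of CPM of each p53 target gene, library labelled DOX over library labelled no DOX; black points are all cells with 95% intervals of counting error, coloured ticks are the 6 classes, and dashed lines stand at 0.5 in either direction. All cells give ratios from -0.19 for MDM2 to 0.24 for XPC, while the ticks of FAS, which rest on few UMIs, spread most widely.

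The members differed far more between classes than between libraries, as genes in general did. Of all genes tested, 53.1% were higher by 0.5 or more in progenitor-like than in beta-like cells in both libraries. Between the libraries 1.02% reached 0.5 in size. In both libraries MDM2, GDF15, BAX, FAS, BBC3, TP53I3 and XPC had their highest level in duct-like cells, and SESN1, ZMAT3 and RRM2B in beta cell progenitor-like cells. All 10 thus had the same highest class in each library, as did most of the 12262 genes that reached 5 CPM in a class of each library. This sameness is therefore no trait of the members. The duct-like interval of CPM stood clear of the next class in both libraries for GDF15, BBC3 and TP53I3. It did so in 1 library for BAX and XPC, and in neither for MDM2 and FAS. The 10 highest duct-like cells held from 18.6% (BAX) to 56.7% (GDF15) of the UMIs of these members, FAS aside, whose 8 and 3 UMIs lay in as many cells. Of the 9 that reached 5 CPM in a class of each library, 6 were highest in duct-like cells in both, beside 21.9% of 12262 genes, and 3 in progenitor-like cells, beside 38.9%. BBC3, among the 6, reached 5 CPM in duct-like and progenitor-like cells alone, so it entered only through these classes. The class names rest on markers from the same libraries, and the members were left out of the clustering genes. As a share of thinned cells with a UMI, TP53I3 gave no order between duct-like and progenitor-like cells. It was in 39.0% (31.1 to 47.5) and 40.1% (32.8 to 47.7) of duct-like cells, against 36.4% and 36.2%. For GDF15 these intervals overlapped in the DOX library (9.83 to 20.8 against 8.59 to 10.2) and not in the no DOX library. For BBC3 they were apart in both libraries.

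MDM2 was at 61.1 CPM in the no DOX library and 55.1 CPM in the DOX library in duct-like cells, 55.9 and 47.9 CPM in progenitor-like cells, and 45.4 and 41.8 CPM in proliferating progenitor-like cells. Alpha-like (27.8 and 27.0 CPM), delta-like (24.0 and 22.7 CPM) and beta-like cells (23.5 and 21.1 CPM) held less. The first 2 classes overlapped in their intervals in both libraries, as did delta-like and beta-like cells, while the alpha-, delta- and beta-like classes lay below the other 3. In the duct-like class the 10 highest cells held 50.7% of the MDM2 UMIs in the no DOX library and 22.6% in the DOX library. As a share of cells with a UMI, each thinned to 5000 UMIs, MDM2 was in 19.2% (13.1 to 26.5) and 22.6% (16.7 to 29.5) of duct-like cells, against 23.7% and 21.2% of progenitor-like cells, so the duct-like intervals held the progenitor-like share in both libraries and gave no order.

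Of the apoptosis genes, BAX was at 302 and 285 CPM in duct-like cells and at 272 and 244 CPM in proliferating progenitor-like cells. It followed at 237 and 223 CPM in progenitor-like, 177 and 171 CPM in alpha-like, 158 and 152 CPM in beta-like and 111 and 103 CPM in delta-like cells. This order was the same in both libraries, and its neighbours were separated everywhere except the first 2 classes in the no DOX library. BBC3 stood apart in duct-like cells, at 28.1 CPM in the no DOX library (21.9 to 35.5; 70 UMIs) and 21.6 CPM in the DOX library (16.7 to 27.5; 66 UMIs). Progenitor-like cells came next at 7.37 and 7.27 CPM, and the other 4 classes lay between 1.29 and 3.94 CPM. For FAS, duct-like cells gave 8 and 3 UMIs (3.21 and 0.98 CPM), progenitor-like cells 29 and 29 UMIs (0.44 and 0.50 CPM) and beta-like cells 9 and 5 UMIs (0.07 and 0.03 CPM). With so few UMIs the duct-like interval of the library labelled DOX reached down to 0.20 CPM. Progenitor-like cells lay above beta-like cells in both libraries.

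GDF15 ranged widely. It was at 39.0 and 52.1 CPM in duct-like cells, 26.2 and 29.8 CPM in progenitor-like cells, and close to 15 CPM in proliferating progenitor-like (15.7 and 15.1) and alpha-like cells (14.7 and 14.04). Beta-like cells held 10.2 and 7.77 CPM, and delta-like cells 2.78 and 4.49 CPM. Duct-like cells lay above progenitor-like cells, and delta-like cells below all others, in both libraries, with CPM intervals that did not overlap.

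SESN1 was flatter, at 22.4 and 21.9 CPM in progenitor-like cells and 21.7 and 20.3 CPM in duct-like cells. It was lowest in delta-like (11.02 and 11.8 CPM) and alpha-like cells (11.2 and 11.5 CPM). ZMAT3 was at 54.9 and 55.6 CPM in progenitor-like cells, 51.8 and 36.7 CPM in duct-like cells, which overlapped them in the no DOX library, and lowest in beta-like cells, at 22.6 and 21.8 CPM. Delta-like cells held 33.1 and 32.6 CPM of ZMAT3, more than alpha-like cells (28.0 and 27.2 CPM) and beta-like cells in both libraries. TP53I3 was at 147 and 112 CPM in duct-like, 93.4 and 94.2 CPM in progenitor-like and 39.2 and 42.6 CPM in delta-like cells, with the other 3 classes from 55.8 to 67.6 CPM.

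RRM2B was the one member with a low level in duct-like cells, at 12.1 CPM (30 UMIs) and 12.5 CPM (38 UMIs). Its level in progenitor-like cells, 40.9 and 42.3 CPM, lay above that of every other class, which held 20 CPM or less. XPC was at 49.8 and 44.6 CPM in duct-like cells, 36.8 and 41.8 CPM in proliferating progenitor-like cells and 34.0 and 40.1 CPM in progenitor-like cells. Alpha-like cells had the least XPC, at 22.0 and 24.98 CPM, below beta-like (24.9 and 29.8 CPM) and delta-like cells (25.2 and 30.7 CPM).

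**Figure D2:**
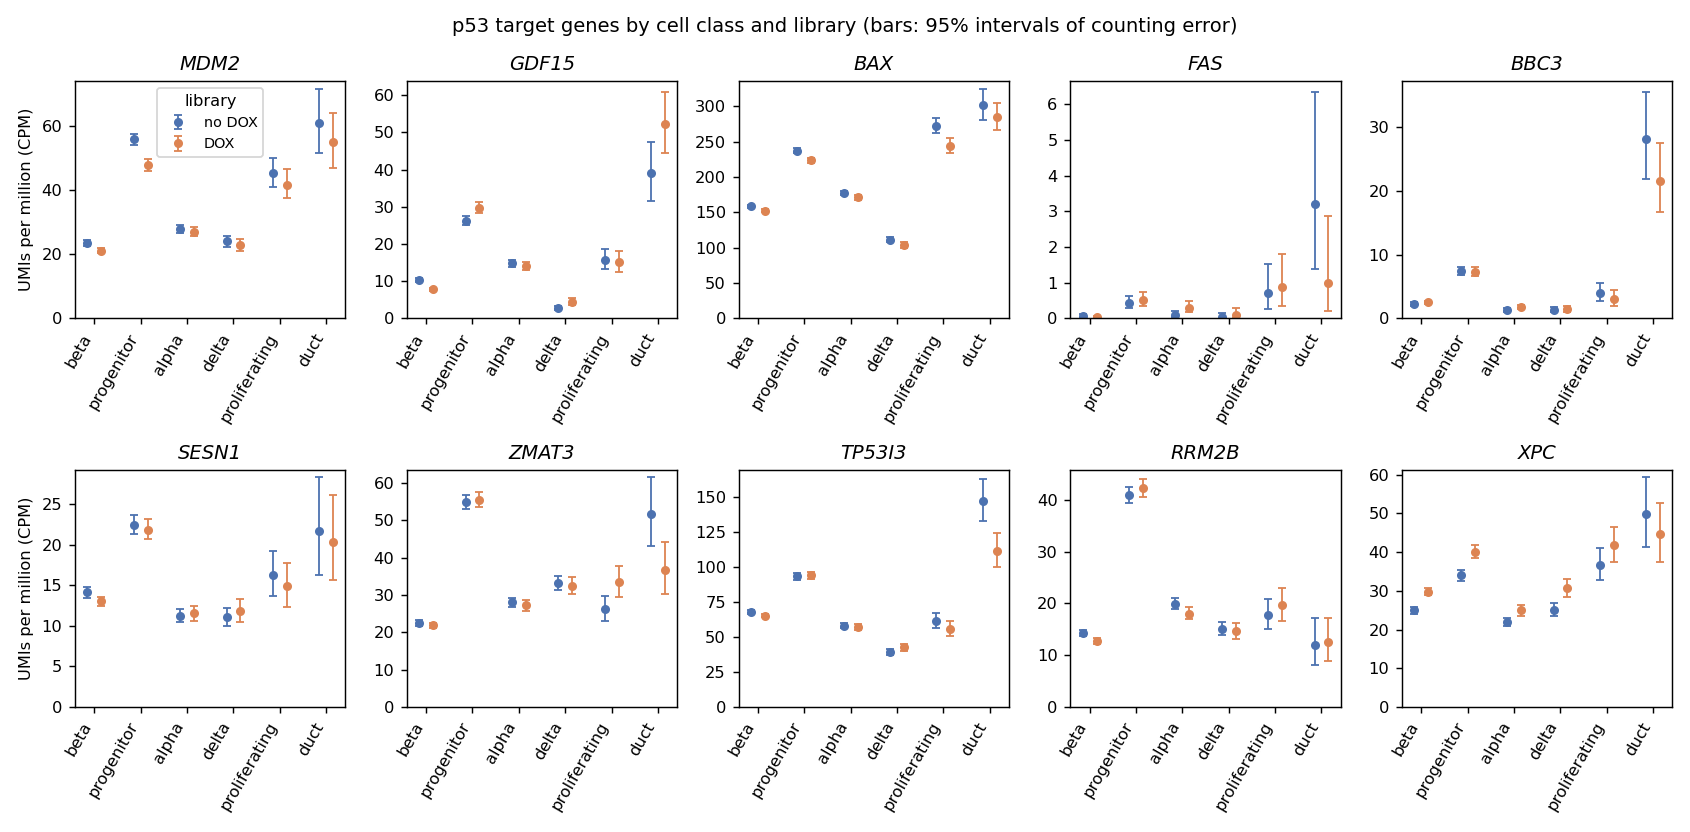
Level of each p53 target gene in CPM (each panel on its own scale from 0) in the 6 classes, with points for each library and bars for 95% intervals of counting error. Duct-like or progenitor-like cells hold the highest point in every panel, and delta-like cells the lowest GDF15, BAX and TP53I3.

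Other cell types' genes were read beside the duct-like values, which rest on 152 and 178 cells. All 14 duct markers were at 5 CPM or more there, and they summed to 7698 and 5041 CPM, against 25.9 and 24.1 CPM in beta-like cells. The 14 markers of proliferating cells summed to 1767 and 1968 CPM in duct-like cells, against 8.3 and 6.5 CPM in beta-like cells. The 14 beta markers, INS among them, still summed to 19246 and 15393 CPM in duct-like cells, and 7 acinar markers to 147 and 500.5 CPM, with 1 of the 7 at 0. A set of 6 pluripotency markers summed to 44.6 and 31.8 CPM, with 2 of the 6 at 5 CPM or more, against 1.24 and 1.85 CPM in beta-like cells, and 8 mesenchymal markers to 21.7 and 15.4 CPM. Their part in the levels of the p53 targets was not tested.

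CPM levels depend on what else a class transcribes. INS took 194354 CPM in beta-like and 65654 CPM in progenitor-like cells, and the median of 10868 genes was higher in progenitor-like than in beta-like cells by a log2 ratio of 0.59 in the no DOX library and 0.60 in the DOX library. Before this shift is taken off, 7 of the 9 members tested were higher by 0.5 or more in both libraries, beside 53.1% of all genes. Relative to the median gene the count was 5 of 9 (MDM2, GDF15, BBC3, ZMAT3 and RRM2B), beside 20% of genes, and none was lower by as much, beside 20.4%. This is a description of classes defined on the same cells and no test. BBC3 reached 5 CPM in progenitor-like cells (7.37 and 7.27 CPM) but not in beta-like cells (2.24 and 2.49 CPM). The filter thus let BBC3 enter only as higher, and it adds no support to either count.

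Relative to the median gene, GDF15 was higher in progenitor-like cells by 0.77 in the no DOX library and 1.34 in the DOX library on the log2 scale. RRM2B was higher by 0.93 and 1.13, BBC3 by 1.13 and 0.95, ZMAT3 by 0.69 and 0.75, and MDM2 by 0.66 and 0.58. SESN1 kept 0.08 and 0.15. BAX (-0.0076 and -0.046), TP53I3 (-0.12 and -0.071) and XPC (-0.14 and -0.17) were at or below the median gene, although their plain ratios were from 0.43 to 0.58. With the mitochondrially encoded and hormone genes taken out of the totals instead, every ratio was smaller, and 6 of the 10 members, FAS included, were past 0.5 in both libraries where 8 had been.

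**Figure D3:**
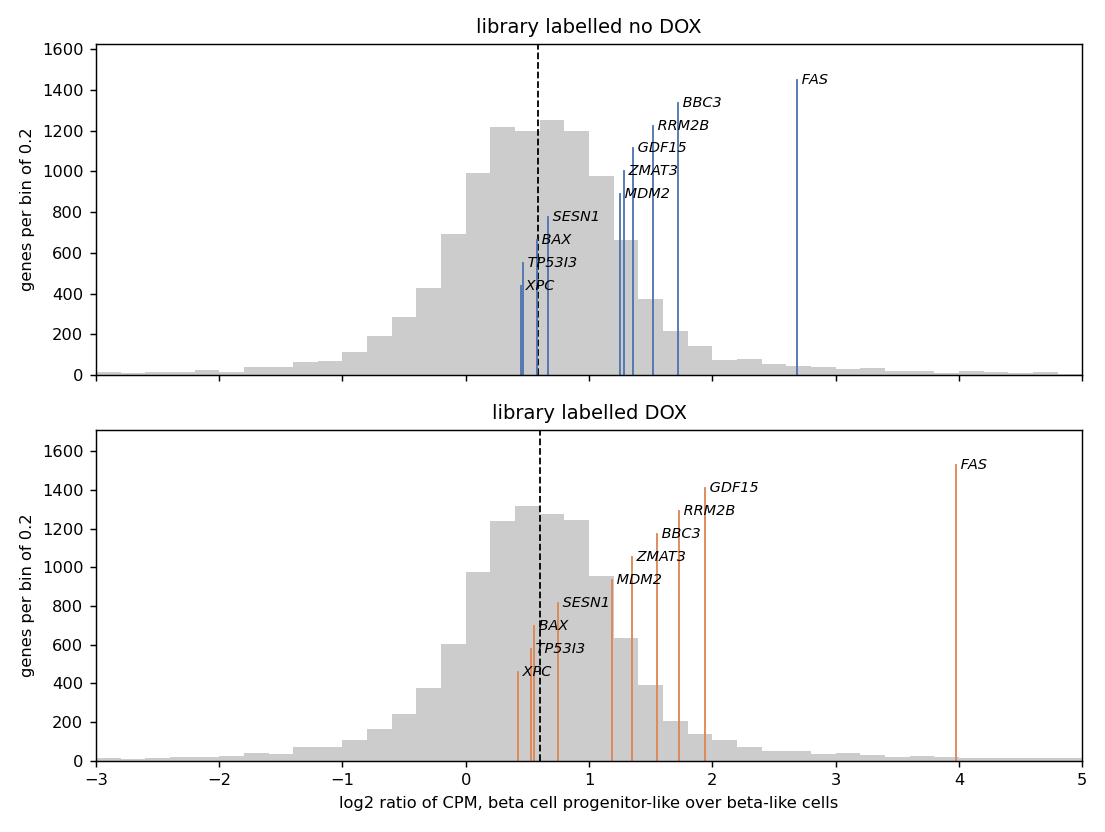
Number of genes by their log2 ratio of CPM in beta cell progenitor-like over beta-like cells (grey bars, bins of 0.2), with each p53 target gene as a line, whose height has no meaning, in each library. The dashed line is the median of all genes, at 0.59 and 0.60; XPC, TP53I3, BAX and SESN1 lie close to it and the other members to its right.

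For duct-like over beta-like cells the median of 11064 genes was 0.26 in both libraries. Higher by 0.5 or more in both libraries were 8 of the 9 members tested, beside 34.9% of genes. Relative to the median gene, 5 of 9 stayed (MDM2, GDF15, BAX, BBC3 and TP53I3), beside 26.1%, and none was lower by as much, beside 25.5%. BBC3 was higher by 3.39 and 2.86, GDF15 by 1.67 and 2.49, and MDM2 by 1.11 and 1.12. BBC3 reached 5 CPM in duct-like but not in beta-like cells, so the filter let it enter both counts only as higher. RRM2B gave -0.51 and -0.29.

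For delta-like over beta-like cells the median of 10183 genes was -0.08 and -0.04. ZMAT3 was the 1 of 8 members tested that was higher by 0.5 or more in both libraries (0.55 and 0.58), beside 11.6% of genes. The 3 that were lower by as much, beside 16.5%, were GDF15 (-1.88 and -0.79), TP53I3 (-0.79 and -0.62) and BAX (-0.51 and -0.56). Relative to the median gene ZMAT3 stayed higher, beside 14.1%, and GDF15 and TP53I3 lower, beside 14.3%. GDF15 was under 5 CPM in delta-like cells (2.78 and 4.49 CPM) and reached that level in beta-like cells (10.2 and 7.77 CPM). The filter thus let GDF15 enter only as lower, and it adds no support to either count of lower members.

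At the finer clustering, whose clusters are not subsets of the classes, the clusters named progenitor-like were cluster 2 (7728 cells, INS at 53334 CPM) and cluster 9 (1350 cells, INS at 20174 CPM, led by CA2 and TAC1), and the members did not move as a block between them. GDF15 was at 34.5 and 37.6 CPM in cluster 2, against 7.4 and 9.0 CPM in cluster 9. MDM2 (62.4 and 52.6 against 27.9 and 35.9 CPM), ZMAT3 (59.7 and 63.5 against 32.6 and 27.8 CPM) and RRM2B (46.5 and 48.1 against 30.0 and 29.1 CPM) had the same direction. TP53I3 had the opposite one, at 92.3 and 91.2 CPM in cluster 2 and 148 and 129 CPM in cluster 9. BAX (252 and 232 against 244 and 230 CPM) and XPC (36.0 and 41.2 against 35.7 and 46.0 CPM) were close to each other. Cluster 7 (1823 cells, led by GPC3) stayed unnamed, with MDM2 at 43.3 and 37.3 CPM, ZMAT3 at 44.7 and 43.7 CPM and GDF15 at 4.36 and 12.9 CPM.

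GDF15 also differed among the 3 finer clusters with the most INS, of those with at least 50 cells in each library. It was at 29.7 and 24.6 CPM in cluster 5, a Beta-1-like cluster led by metallothionein genes, at 4.9 and 5.6 CPM in cluster 0, an unnamed cluster with IAPP as leading gene, and at 3.0 and 2.3 CPM in cluster 3, a Beta-2-like cluster. MDM2 did not follow it there, at 22.8 and 19.995 CPM in cluster 5, 21.3 and 19.5 CPM in cluster 0 and 26.8 and 24.3 CPM in cluster 3. ZMAT3 was highest of these in cluster 3, at 31.4 and 25.8 CPM, against 18.0 to 20.1 CPM in clusters 0 and 5. Median UMIs per cell were 21899 in cluster 5, 14584 in cluster 0 and 16907 in cluster 3, and the part of depth in these levels was not tested.

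**Figure D4:**
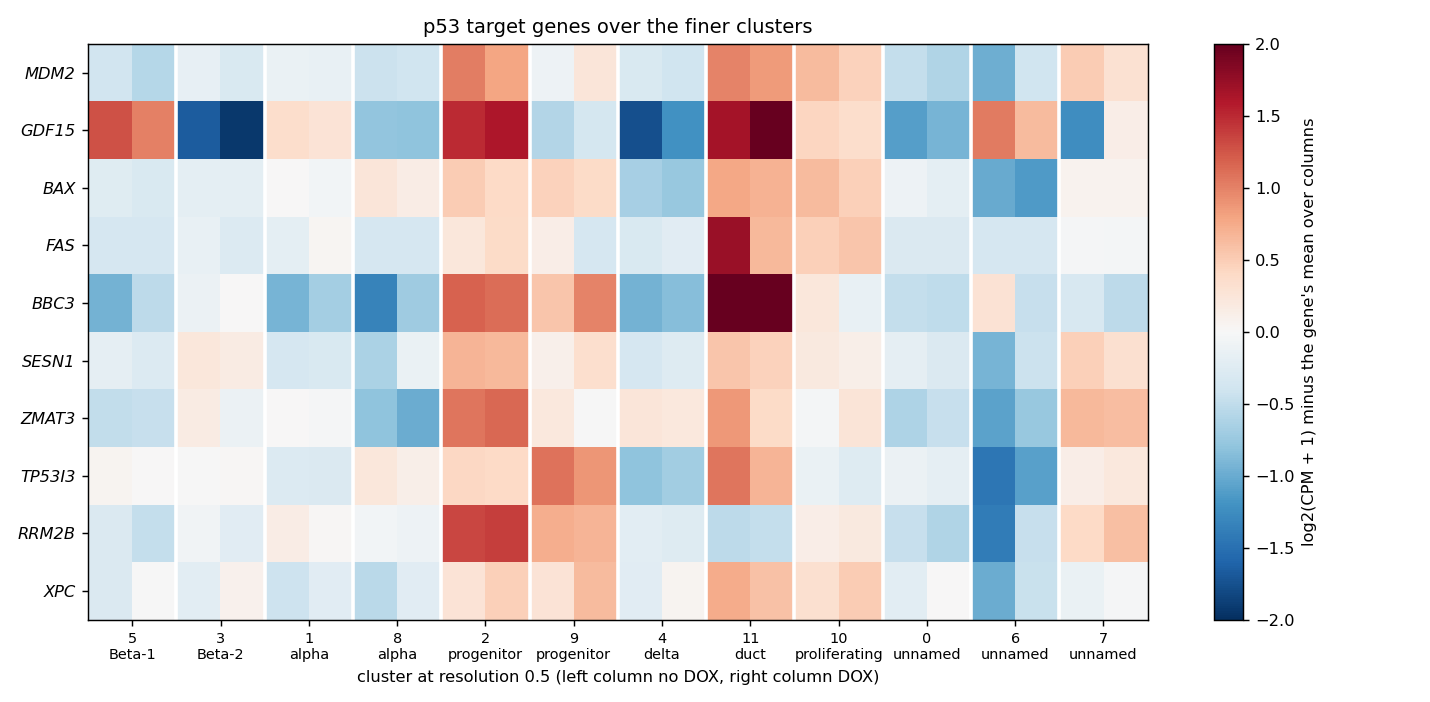
Heatmap of the p53 target genes (rows) over the clusters at resolution 0.5 with at least 50 cells in each library; in each cluster the left column is the library labelled no DOX and the right one DOX. Colour is log2(CPM + 1) minus the gene's mean over the columns, clipped at 2 in either direction; GDF15 is highest in clusters 11, 2 and 5, followed by the mostly mitochondrial cluster 6, and BBC3 most in cluster 11, the duct-like cells.

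Across the 24 cluster and library points with at least 50 cells, the Pearson correlation of log2(CPM + 1) between pairs of members ranged from 0.07 for GDF15 with RRM2B to 0.88 for MDM2 with SESN1, with a median of 0.61 over the 45 pairs. These points share libraries, depth and totals, and the values describe them only. Within classes, cells thinned to 5000 UMIs gave mostly low correlations between members. Mean UMIs per thinned beta-like cell of the no DOX library ran from 0.00045 (FAS) to 0.81 (BAX). At such counts low correlations do not show that the members vary apart. The median over 45 pairs was 0.00072 and 0.0036 in beta-like cells and 0.040 and 0.041 in progenitor-like cells, where GDF15 with BAX was highest (0.19 and 0.15).

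Within classes, the difference between the libraries was again small for most members. MDM2 and BAX were lower in the DOX library than in the other in 6 of 6 classes, with intervals below 0 in 2 classes for MDM2 and 5 for BAX. The size stayed between -0.22 and -0.04 for MDM2 and between -0.16 and -0.05 for BAX. XPC was higher in 5 of 6 classes, by 0.18 to 0.29, with intervals above 0 in 4, and was at -0.16 (-0.52 to 0.20) in duct-like cells. BBC3 had an interval that spanned 0 in every class. How many of all genes kept 1 direction over as many classes was not counted. No shift of the median gene within a class was taken off these ratios.

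GDF15 had intervals on either side of 0. It was lower in the library labelled DOX in beta-like cells, with a ratio of -0.40 (-0.51 to -0.28), and higher in progenitor-like cells (0.18, 0.09 to 0.28), duct-like cells (0.42, 0.05 to 0.80) and delta-like cells (0.69, 0.28 to 1.10). Few cells carried these UMIs. In beta-like cells of the no DOX library, 669 of 7049 cells held 1352 GDF15 UMIs, and the 10 highest cells held 27.1% of them, 166 in 1 cell. In the DOX library the 10 highest of 9915 cells held 20.2% of 1215 UMIs. The libraries also filled the finer clusters unevenly, since cluster 5 counted 1246 and 1238 cells and cluster 0 counted 3360 and 5846.

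The share of cells with a GDF15 UMI weighs each cell once. With every cell thinned to 5000 UMIs, which left out 374 and 311 beta-like and 217 and 160 progenitor-like cells below that depth, it was 2.86% (2.47 to 3.29) of beta-like cells in the no DOX library and 2.84% (2.52 to 3.19) in the DOX library, so that the difference seen in CPM was not seen in the share. Progenitor-like cells gave 8.96% and 9.38%, alpha-like cells 4.38% and 4.98%, and duct-like cells 17.1% and 14.7%, each with overlapping intervals. Delta-like cells gave 1.52% (1.07 to 2.09) and 2.36% (1.72 to 3.17). Before thinning the shares were 9.49% and 7.12% in beta-like and 14.2% and 13.1% in progenitor-like cells. Free RNA can give UMIs in cells that do not transcribe a gene, and no class is known to lack GDF15; the share in delta-like cells is the lowest in these libraries.

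**Figure D5:**
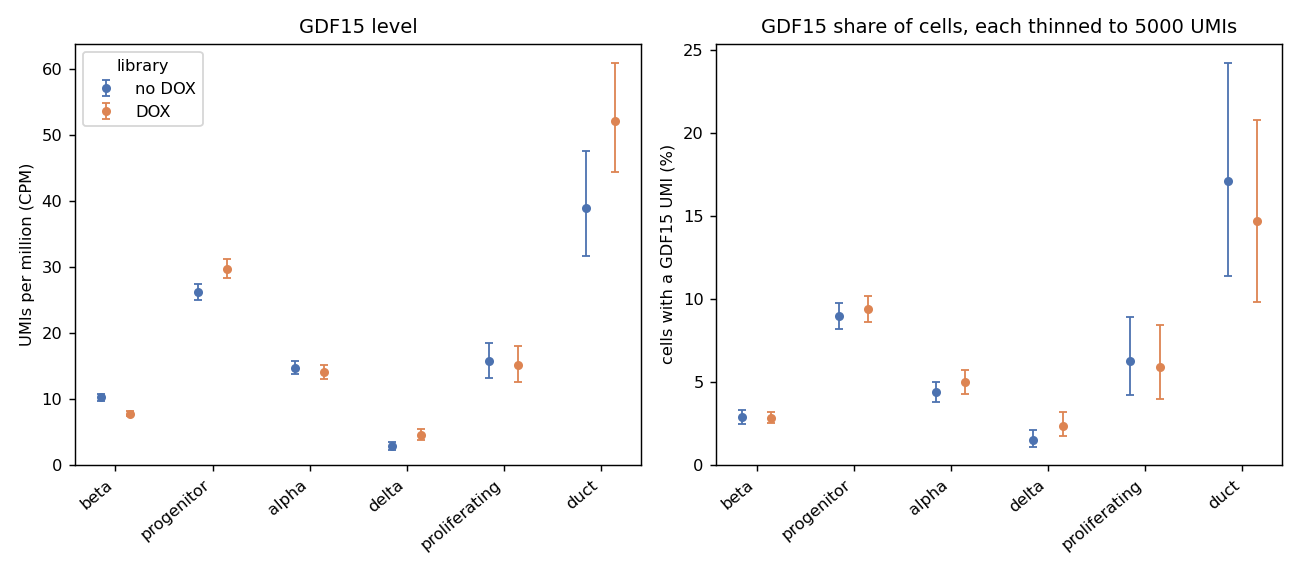
GDF15 by class and library as a level (left, CPM with 95% Poisson intervals) and as the percentage of cells with at least 1 GDF15 UMI after each cell was thinned to 5000 UMIs (right, 95% Clopper-Pearson intervals). The order of the classes is alike in both panels, and the gap between the libraries in beta-like cells, 10.2 against 7.77 CPM, is 2.86% against 2.84% as a share.

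The same thinned shares were read for the other members. BAX had a UMI in 54.1% and 52.7% of beta-like and 67.6% and 64.8% of progenitor-like cells. MDM2 was found in 11.5% and 9.95% of beta-like and 23.7% and 21.2% of progenitor-like cells. RRM2B was found in 7.10% and 6.23% of beta-like and 18.9% and 19.1% of progenitor-like cells, and XPC in 12.0% and 13.9% against 16.8% and 19.04%. Thinning makes total UMIs equal and leaves the shift of the median gene between these classes in place, against which BAX and XPC were not higher.

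The wider pathway was read from lists of genes, none of them a member. Of 15 regulators of p53, 12 were tested between the libraries. CHEK1, a checkpoint kinase, was the only one past 0.25 (4.33 and 5.31 CPM, 0.29), beside 5.76% of all genes. CHEK1 reached 5 CPM in the DOX library alone, so the filter let it enter only as higher there. It was not higher in the DOX library in progenitor-like cells (3.35 and 2.60 CPM) or beta-like cells (1.51 and 1.33 CPM). MDM4, the other main inhibitor of p53, was at 41.2 and 37.8 CPM (-0.12). HIPK2, a kinase that phosphorylates p53, was at 179 and 169 CPM, TP53BP1 at 60.9 and 64.8 CPM and ATM, the kinase that answers double-strand breaks, at 42.6 and 42.0 CPM. Over beta-like cells, progenitor-like cells were higher by 0.5 or more in both libraries for 10 of 11 regulators tested, beside 53.1% of all genes, and for 4 relative to the median gene, beside 20%. The same shares stand beside the counts of the lists that follow. As with BBC3, genes under 5 CPM in beta-like cells could enter the counts between these classes only as higher. CDKN1A, PHLDA3, AEN, PIDD1, DDB2, FDXR and GLS2 are such genes. In the same way, genes under 5 CPM in progenitor-like cells could enter only as lower.

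Of 11 other targets for arrest and feedback, 9 were tested between the libraries and 1 passed 0.25, TP53INP1, at 121 and 102 CPM (-0.25). CDKN1A, which encodes the cell cycle inhibitor p21 and is the best known p53 target, was at 11.9 and 12.5 CPM (0.07, 0.01 to 0.14). BTG2, an antiproliferative gene, was at 88.2 and 96.4 CPM (0.13), and GADD45A at 58.7 and 51.4 CPM (-0.19). Between classes, CDKN1A was at 37.6 and 41.8 CPM in progenitor-like and 3.01 and 2.81 CPM in beta-like cells, a log2 ratio of 3.64 and 3.90. Like GDF15 and MDM2, CDKN1A was higher in cluster 2 (47.3 and 53.9 CPM) than in cluster 9 (10.5 and 14.4 CPM). The list as a whole was divided, with 4 genes higher (CDKN1A, TP53INP1, SESN2 and PHLDA3) and 4 lower relative to the median gene, BTG2 at plain ratios of -1.19 and -1.06 among the latter. PLK2, also among the lower ones, was under 5 CPM in progenitor-like cells (2.92 and 2.03 CPM), so the filter let it enter only as lower.

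Of 9 other targets for cell death, 4 were tested between the libraries and none passed 0.25. PMAIP1, which encodes the BH3-only protein NOXA, was at 9.55 and 9.58 CPM, PERP at 158 and 155 CPM, APAF1, the core of the apoptosome, at 9.66 and 8.67 CPM, and AEN, an apoptosis-enhancing nuclease, at 7.62 and 6.70 CPM. AEN was higher in progenitor-like than beta-like cells by 1.92 and 1.76, and passed the filter only through progenitor-like cells. In this comparison 3 of 5 genes tested, a share near the 53.1% of all genes, were higher by 0.5 or more in both libraries, and relative to the median gene 1 was higher and 2 were lower.

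Of 10 other targets for repair and metabolism, 5 were tested between the libraries and none passed 0.25. SCO2 was at 43.5 and 46.4 CPM, TRIAP1 at 44.2 and 42.8 CPM, TIGAR, a regulator of glycolysis, at 11.2 and 10.99 CPM, DDB2, the damage sensor that works with XPC, at 7.23 and 7.45 CPM, and FDXR at 5.64 and 5.00 CPM. DDB2 was higher in progenitor-like than beta-like cells by 1.73 and 1.57, and FDXR by 1.85 and 1.83. In beta-like cells DDB2 was at 3.54 and 4.03 CPM and FDXR at 2.71 and 2.46 CPM. Like GLS2, both passed the filter only through progenitor-like cells. Of the 6 tested there, 4 were higher by 0.5 or more in both libraries, and 2 relative to the median gene.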

How the data were processed

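Single-cell RNA of dissociated eBCs was counted in 2 libraries. The authors deposited raw counts, 1 UMI count for each gene in each barcode. The headers of the count files give 3.0.2 as the Cell Ranger software version, kallisto and bustools are what the paper's methods describe, and the submitters' notes name the build GRCh38. The 10 members and all gene lists were chosen with earlier results of these data known.

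Barcodes with at least 1000 UMIs were kept, doublets were removed per library with Scrublet (scanpy 1.11.5), and cells were clustered from 2293 highly variable genes, without 37 that were members or pathway genes, in 50 principal components with 3 neighbours per library. Communities were found with leidenalg 0.10.2 at resolution 0.2 and, for finer clusters, 0.5. A cluster was named where the mean log2 fold of a class's markers was at least 1, at least 3 were raised and its markers led the top 10 genes. UMIs were summed per class and divided by the class total (CPM). Levels have exact Poisson, ratios exact conditional binomial and shares exact Clopper-Pearson 95% intervals (scipy 1.17.1), and the scripts were tested on simulated data. With 1 library per condition no test between the libraries was made. PCR copies are removed by UMIs, but intervals cover counting error only. Genes with at least 5 CPM in 1 group were counted by log2 ratios of 0.25 and 0.5. Named genes were all members and, of each of 8 lists, the 2 largest and 2 smallest ratios, and for the first 4 lists also the 3 highest levels. A few further genes of these lists, named in the counts, were chosen after their values were seen. Gene positions are from GENCODE 44. Alternatives were other limits on UMIs, doublets and mitochondrial share, other totals and weights, thinning, log-normalized means and other clusterings. Ratios between classes relative to the median gene and without hormone genes were added after seeing the data. The values of 1 gene of these lists are not reported here.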

Additional observations from a re-analysis of the deposited data

Results flagged for a closer look

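For 3 members the ratio between the libraries had intervals on opposite sides of 0 in different classes, and these differences were not tested, since each class is 1 sum per library. How many of all genes show the same was not counted, so nothing particular to the members is read from it. With the library labelled DOX as numerator, the log2 ratio of GDF15 was 0.69 in delta-like cells (99 and 108 UMIs) and -0.40 in beta-like cells, a difference of 1.09. In delta-like cells 1 cell of the DOX library held 15 of the 108 UMIs, against at most 3 in a cell of the other, and in beta-like cells 1 cell of the no DOX library held 166 of the 1352. For ZMAT3 it was 0.35 in proliferating progenitor-like cells (226 and 268 UMIs) and -0.50 in duct-like cells (129 and 112 UMIs), a difference of 0.85. For TP53I3 it was 0.12 in delta-like cells and -0.40 in duct-like cells (367 and 341 UMIs), a difference of 0.52.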

How the results depend on the processing

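No paired analysis was possible because each condition has 1 library. The summed ratio of -0.05 became -0.068 with every class weighted equally and -0.020 as means of log-normalized values, and kept its sign in all 8 alternatives. The count past 0.5 between the libraries, here over all 10 members with FAS and BBC3 included, went from 0 to 1 with every class weighted equally and to 1 with thinning to 5000 UMIs, in both cases FAS (-0.72 and 0.83), the member with the fewest UMIs. The ratio of GDF15 turned from -0.08 to 0.032 with doublets kept, 0.18 with classes weighted equally and 0.038 after thinning, and that of TP53I3 from -0.01 to 0.0029, 0.033 with thinning and 0.0082 as log-normalized means. Equal weights also took BBC3 from 0.04 to -0.24, RRM2B from -0.11 to -0.0026 and XPC from 0.24 to 0.14, and thinning took BBC3 to -0.058 and ZMAT3 from -0.07 to -0.16. For progenitor-like over beta-like cells, scaling to the median gene, added after seeing the data, turned BAX to -0.0076 and -0.046, TP53I3 to -0.12 and -0.071 and XPC to -0.14 and -0.17, by its own construction, and left 6 of the 10 members past 0.5 where 8 were. With doublets kept, no cluster was named proliferating progenitor-like. The cause of the other changes was not tested. All 10 members had the same highest class in both libraries under the 7 other clusterings and filters, as most genes had in the main clustering. With 1 library per condition, the depth narrows the intervals of all members except FAS, and differences between cultures are not measured.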

Other observations

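Other genes around p53 were nearly flat between the libraries. Of 9 BCL2 family genes tested, HRK was the 1 past 0.25 (15.5 and 12.7 CPM, -0.28). MCL1 was at 68.8 and 64.7 CPM, BID at 34.6 and 36.5 CPM and BIK at 5.32 and 5.47 CPM. Of 11 genes for nucleotide excision repair and ribonucleotide reductase, none passed 0.25. XPA (33.3 and 36.6 CPM) and CETN2, a partner of XPC (83.0 and 91.5 CPM), both gave 0.14, while ERCC2 gave -0.17 and RRM2 -0.20. In progenitor-like over beta-like cells, 6 of 9 BCL2 family genes and 7 of 10 repair genes tested were higher by 0.5 or more in both libraries, shares not far from the 53.1% of all genes, and 2 and 1 of them relative to the median gene, where 2 and 1 were lower.

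Of 10 ATF4 targets tested none passed 0.25. PPP1R15A gave 0.15, CHAC1 0.11, and ATF3 and DDIT4 both -0.20. In progenitor-like over beta-like cells, 4 of 10 were higher by 0.5 or more in both libraries, beside 53.1% of all genes. Lower by as much were 2 of the 10, beside 737 of 10868 genes. Relative to the median gene 1 was higher and 5 lower. Of 10 immediate early and heat shock genes, 3 were lower in the library labelled DOX by 0.25 or more, DNAJB1 among them (54.5 and 43.1 CPM, -0.34). HSPA1A was at 94.6 and 27.2 CPM (-1.80) and HSPA1B at 39.7 and 13.9 CPM (-1.51), near-identical copies whose counts may be split. JUNB gave 0.12 and IER2 -0.01. Of 9 of these genes tested between classes, 2 were higher in progenitor-like than in beta-like cells by 0.5 or more in both libraries. Lower by as much were 3 of the 9, beside 737 of 10868 genes. Relative to the median gene 1 was higher, beside 20% of genes, and 5 lower, beside 20.4%. IER2 (-1.71 and -1.47) and JUNB (-1.57 and -1.40) were among the lower ones.

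Over the 24 cluster and library points, the genes most like the members among 8207 compared were PSMC4 for TP53I3 (Pearson r of 0.97), TPR for XPC (0.96), PFN1 for BAX (0.96), PSMC6 for SESN1 (0.96), RNF6 for RRM2B (0.96), MPZL1 for ZMAT3 (0.95), DRG1 for MDM2 (0.93), WNK2 for BBC3 (0.92), CPSF4 for FAS (0.91) and FGFR3 for GDF15 (0.78). GDF15 thus had the lowest best match. The points share libraries and totals. The match for FAS rests on few UMIs, with 8 and 3 in cluster 11, the duct-like cells, and 0 in cluster 5. BBC3 had its highest level in cluster 11 (28.1 and 21.6 CPM), so that cluster weighs heavily in its match.

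The unnamed cells with mostly mitochondrial UMIs held 25.5 and 17.4 CPM of GDF15 (71 and 53 UMIs), more than the 10.2 and 7.77 CPM of beta-like cells, and 86.7 and 79.3 CPM of BAX, less than any named class. CPM divides by all UMIs, of which a median of 70.8% were mitochondrial in these cells, against 7.44% in beta-like cells. The part of this total in the low rank of BAX was not tested, so the rank is one of CPM only.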
